A study of Mus musculus with 14 samples.

Results

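The collagen genes measured here were the mouse genes whose symbol has the form Col, a type number, the letter a and a chain number. They were matched in the annotation of the array, using only probe sets that name 1 gene, and where a gene had several, the brightest on average over all 14 arrays stood for it. The match gave 42 genes out of 18194 in the series, measured by 82 probe sets. Of these genes, 15 had 1 probe set and 27 had several. Expression is given as the deposited log2 value, on which a difference of 1 is a change by a factor of 2.

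Transcripts of heart and hippocampus from untreated C57BL/6 mice were measured on Affymetrix mouse arrays with a single colour. Adult heart and adult hippocampus came from male mice 10 weeks old, and each of these tissues had 2 biological replicates on 4 arrays. Pup heart and pup hippocampus came from animals 7 days old whose sex was not given, and each of these tissues had 3 biological replicates on 3 arrays. The series was designed to compare a brain tissue with a tissue outside the brain, and pups with adults. Averaging the technical arrays left 10 samples, and an adult value is therefore a mean of 2 arrays while a pup value is from 1 array. Adult RNA was bought, whereas the RNA of pups was isolated from dissected tissue, so age cannot be told apart from RNA source and preparation. The sources do not state that the adult replicates were separate animals. The titles give 2 biological replicates for an adult tissue, another label of the same arrays counts 4, and the methods speak of a male mouse in the singular. The spread behind each p-value is thus that between samples and could be technical.

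Collagens are secreted proteins whose chains wind around each other in a helix, and the chains that can join define the collagen types. Fibrillar collagens such as types I and III form the fibrils that bear load in the wall of the heart, where fibroblasts make most of them, and type V regulates the width of those fibrils. Type IV chains build the network of basement membranes around vessels, heart muscle cells and the surface of the brain, and brain tissue outside its vessels and meninges holds little fibrillar collagen.

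Several facts of the whole series touch the collagen values. The 18 probe sets of hybridization controls, transcripts added before hybridization, averaged 10.73 in adult heart, against 13.16 in pup heart, and 10.80 in adult hippocampus, against 13.15 in pup hippocampus. Their age differences of -2.43 in heart and -2.35 in hippocampus were as large as those of several collagen genes, and their part in the age comparisons was not tested. Between the adult replicates of a tissue the mean squared difference over all probe sets was 0.921 times that between technical arrays in heart and 1.20 times in hippocampus. All 10 listed markers of heart muscle cells were higher in pup heart than in pup hippocampus, and 7 of 10 were higher in adult heart than in adult hippocampus. Transcripts of heart muscle were also present in pup hippocampus. Actc1, the cardiac actin, was 14.76, 12.49 and 10.31 in pup hippocampus replicates 1, 2 and 3, against 8.30 and 8.51 in adult hippocampus. Calls that use pup hippocampus were therefore also made without replicate 1, and the changes are given beside them. Heart transcripts remained in those fits, where Actc1 (-2.99) and the heart muscle marker Myh6 (-2.35) were still lower in adult than in pup hippocampus. A call that passed there is therefore not shown to be free of them. In bulk samples, fewer cells of a type and less RNA per cell cannot be told apart. Deposited values lay between 2.67 and 16.0, no detection calls were used for the low ones, and precision is limited by how few arrays there were.

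The promoters of 4 genes are shown because these genes were lower in adult than in pup heart, as given below, and because 2 of them are a pair of neighbours. The sequences are RefSeq windows of mouse build GRCm38.p6, from 250 bases before to 50 bases after the start of a transcript, and windows were matched for 33 of the 42 genes, some of which have more than 1 start. Col4a1 (chr8:11312777-11313076, minus strand) and Col4a2 (chr8:11312555-11312854, plus strand) run in opposite directions with 0 protein-coding genes between them. Their windows share 78 bases, printed in capitals and read from opposite strands.
Col4a1: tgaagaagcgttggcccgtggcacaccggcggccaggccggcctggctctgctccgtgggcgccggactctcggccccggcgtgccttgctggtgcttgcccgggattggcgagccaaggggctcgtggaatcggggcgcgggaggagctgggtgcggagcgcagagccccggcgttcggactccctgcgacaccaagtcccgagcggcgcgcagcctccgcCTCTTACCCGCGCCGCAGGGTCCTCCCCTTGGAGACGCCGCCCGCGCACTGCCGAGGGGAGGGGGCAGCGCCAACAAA
Col4a2: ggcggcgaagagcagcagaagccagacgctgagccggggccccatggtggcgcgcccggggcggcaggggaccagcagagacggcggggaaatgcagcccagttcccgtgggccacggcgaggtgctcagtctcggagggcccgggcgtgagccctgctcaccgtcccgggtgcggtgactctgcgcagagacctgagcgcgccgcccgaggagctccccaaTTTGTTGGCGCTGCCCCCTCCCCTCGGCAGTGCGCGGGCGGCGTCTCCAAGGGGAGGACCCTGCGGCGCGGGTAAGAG
For the fibrillar genes Col1a2 (chr6:4505368-4505667, plus strand) and Col3a1 (chr1:45311288-45311587, plus strand), capitals mark matches on either strand to CCAAT (as in sites of the factor NF-Y), to TATAAA (as in a TATA box) or to GGGCGG (the GC box).
Col1a2: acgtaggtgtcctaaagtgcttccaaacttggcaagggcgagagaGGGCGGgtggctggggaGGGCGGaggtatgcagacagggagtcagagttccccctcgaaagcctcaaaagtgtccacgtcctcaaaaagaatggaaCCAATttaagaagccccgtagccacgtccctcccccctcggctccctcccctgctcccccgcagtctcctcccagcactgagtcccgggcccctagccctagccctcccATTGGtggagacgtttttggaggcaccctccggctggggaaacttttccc
Col3a1: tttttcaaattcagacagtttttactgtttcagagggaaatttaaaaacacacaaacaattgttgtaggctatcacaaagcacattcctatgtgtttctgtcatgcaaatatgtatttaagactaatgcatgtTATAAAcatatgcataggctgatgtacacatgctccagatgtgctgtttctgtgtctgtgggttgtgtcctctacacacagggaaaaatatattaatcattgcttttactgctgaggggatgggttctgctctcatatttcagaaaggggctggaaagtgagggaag
The Col1a2 window held 2 matches to CCAAT and 2 to GGGCGG, and the Col3a1 window held 1 match to TATAAA. That match lies at bases 134 to 139 of the window, in which 250 bases precede the start of the transcript. Whether it acts as a TATA box was not tested. A match on either strand to CCAAT stood in 36.1% of the 36 windows of collagen genes and in 37.4% of all 32851 windows. TATAAA stood in 13.9% of the collagen windows and in 13.6% of all windows. GGGCGG stood in 61.1% of the collagen windows and in 35.7% of all windows. Matches may overlap each other and were counted for each motif on its own.

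Adult heart had less of several fibrillar and basement membrane collagens than pup heart, and few collagen genes were higher in adults. Of the 42 genes, 7 were lower in adult heart (Col1a2, Col3a1, Col5a2, Col4a1, Col4a2, Col6a3 and Col15a1), 2 were higher (Col4a6 and Col5a3) and 33 did not pass the test. Over all genes tested, 9.38% were lower and 11.2% higher at the same threshold, an adjusted p of 0.05 in limma. The 7 lower genes differed by -1.95 to -4.99. The median difference of the collagen genes was -0.06 and that of all genes was 0.09. The median of all genes moved to -0.04 when arrays were median centred and scaled by their percentile range, which gave 8 collagen genes lower and 2 higher. The unmoderated test per gene that the study's methods name, with the same adjustment, called 0 collagen genes here (6 higher and 8 lower at an unadjusted p under 0.05). That test called 37 genes higher and 30 lower over all 18194. The count of 2 higher genes became 4 without pup heart replicate 2, 1 without adult heart replicate 2 and 0 without adult heart replicate 1, while 6 of the lower genes were called whichever sample was left out.

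**Figure D1:**
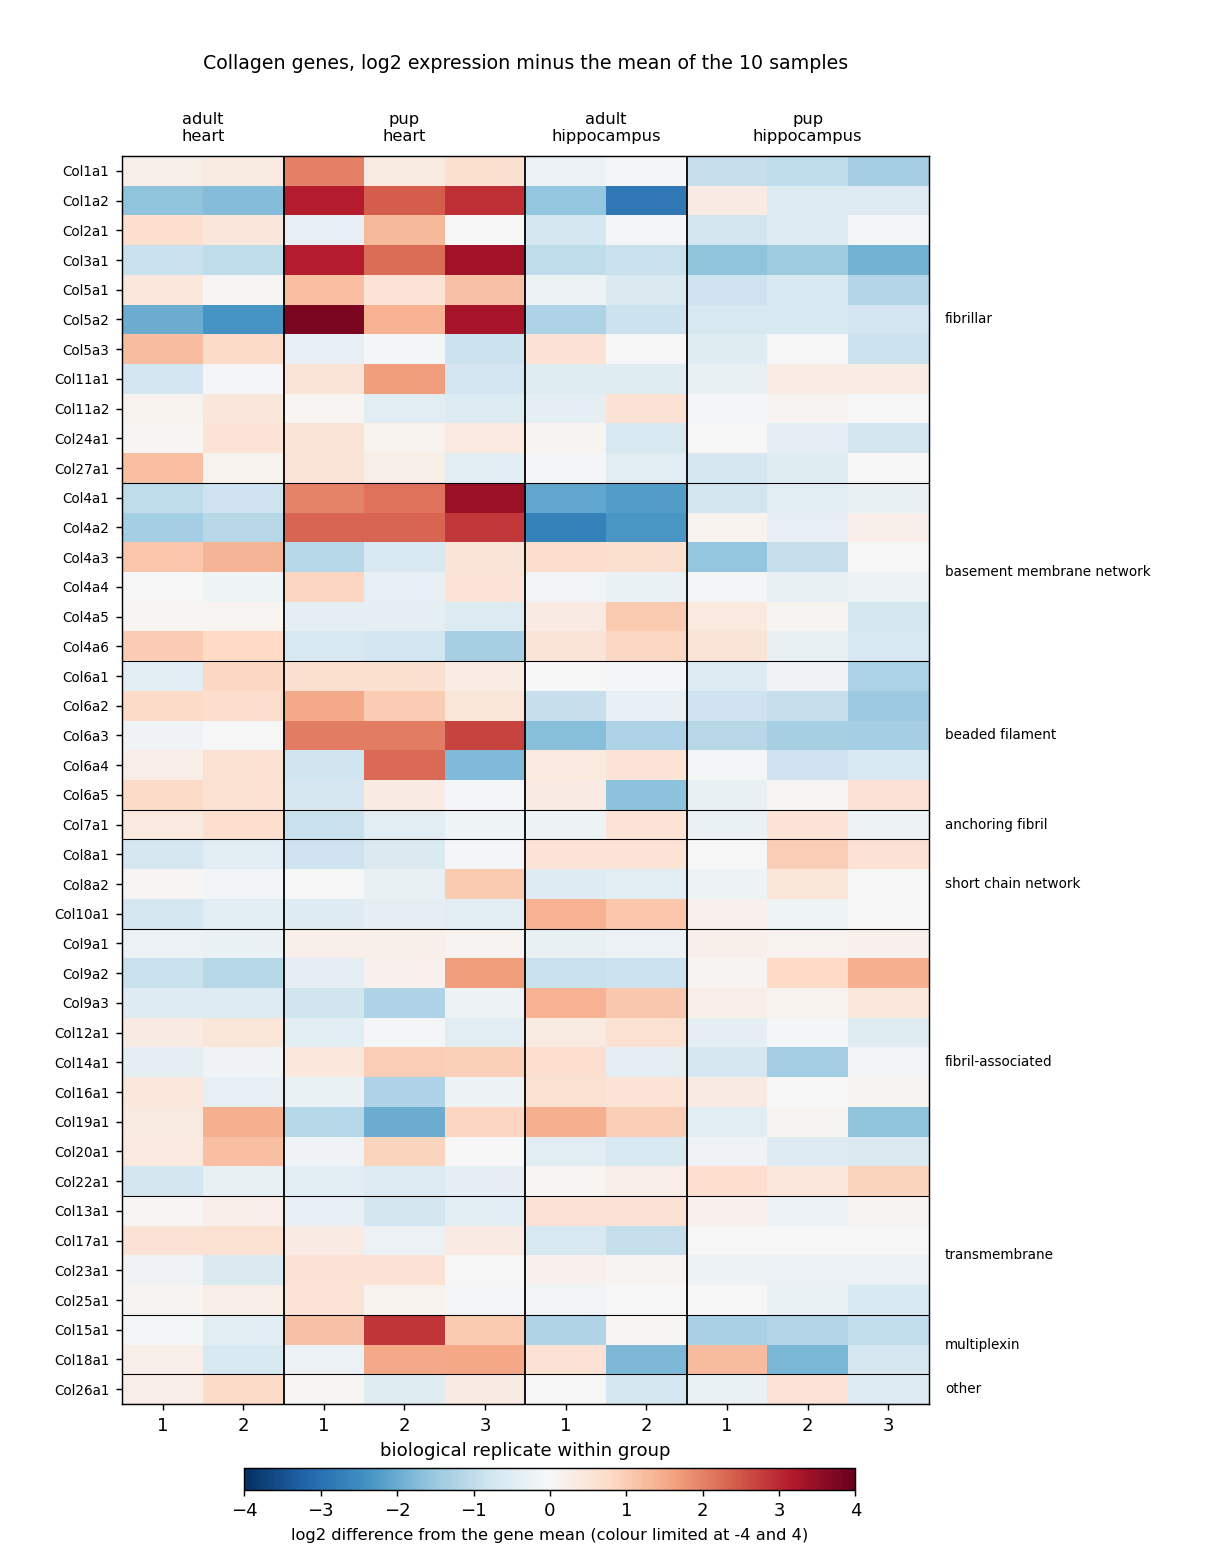
Log2 expression of the 42 collagen genes (rows, grouped by structural class) in the 10 samples (columns, by group and biological replicate), as the difference from the mean of each gene over the samples. The 3 pup heart columns stand out in red for Col1a2, Col3a1, Col5a2, Col4a1, Col4a2 and Col6a3, while most other rows are pale.

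The fibrillar collagens showed the largest differences. Of 11 measured fibrillar genes, 3 were lower in adult heart, 1 was higher and 7 did not pass. Col5a2, a chain of type V collagen, was 7.88 and 7.49 in adult heart, against 13.63, 11.25 and 13.16 in pup heart. The groups did not overlap, and pup heart replicate 2 was well below the other pup hearts. The level was 31.8-fold lower in adult heart (difference -4.99, SE 0.58, limma adjusted p = 0.0012). In hippocampus Col5a2 was 8.61 and 8.99 in adults, against 9.22, 9.24 and 9.08 in pups, a difference of -0.38 that did not pass (adjusted p = 0.699).

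Col1a2 and Col1a1 encode the chains that join to form type I collagen, the main fibril protein of scar and of the heart wall. Col1a2 was 10.44 and 10.32 in adult heart, against 15.20, 14.49 and 14.97 in pup heart, 22.7-fold lower in adults (difference -4.51, SE 0.43, adjusted p = 0.000612). In adult hippocampus it was 10.51 and 9.20, against 12.39, 11.50 and 11.54 in pup hippocampus, 3.88-fold lower in adults (difference -1.96, SE 0.43, adjusted p = 0.0173). Neither pair of groups overlapped, and adult hippocampus replicate 2 was the lowest of all samples. Col1a1 was 12.61 and 12.73 in adult heart, against 14.39, 12.72 and 13.00 in pup heart, and these groups overlapped. The difference of Col1a1 in heart was -0.70 (SE 0.44, adjusted p = 0.297), and pup heart replicate 1 stood above the other samples. In hippocampus Col1a1 was 12.13 and 12.31 in adults, against 11.45, 11.34 and 11.01 in pups, with no overlap but no call either (difference 0.95, adjusted p = 0.176). The other probe set of Col1a1 gave differences of -0.99 in heart and -0.42 in hippocampus, and neither passed. The difference between Col1a2 and Col1a1 was not tested.

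Col3a1, whose type III collagen is laid down with type I in elastic tissues, was 10.77 and 10.65 in adult heart, against 14.81, 13.89 and 15.01 in pup heart. Its level was 14.6-fold lower in adult heart (difference -3.86, SE 0.33, adjusted p = 0.000448). In hippocampus it was 10.64 and 10.77 in adults, against 10.06, 10.23 and 9.77 in pups, a difference of 0.69 that did not pass (adjusted p = 0.191). Pup heart was alone at a high level, and the other 3 groups lay within 9.77 to 10.77. The hippocampal value depended on the probe set, since the other Col3a1 probe set was lower in adults there and passed (difference -1.80, adjusted p = 0.00686 over all probe sets, and -1.58 with adjusted p = 0.0214 without pup hippocampus replicate 1). Col5a3, another type V chain, was 10.77 ± 0.34 in adult heart and 9.37 ± 0.40 in pup heart (SD, n = 2 and n = 3), 2.63-fold higher in adults (adjusted p = 0.0239). Its call was lost without adult heart replicate 1 (difference 1.16), adult heart replicate 2 (1.64) or pup heart replicate 3 (1.18).

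Among the 6 basement membrane chains of type IV, 2 were lower in adult heart, 1 was higher and 3 did not pass. Col4a2 was 11.16 and 11.38 in adult heart, against 14.84, 14.81 and 15.33 in pup heart, 13.2-fold lower in adults (difference -3.73, SE 0.27, adjusted p = 0.000334). In hippocampus it was 9.78 and 10.16 in adults, against 12.64, 12.18 and 12.72 in pups, 5.82-fold lower in adults (difference -2.54, SE 0.27, adjusted p = 0.00127). Col4a1, which joins with Col4a2 in the common basement membrane trimer, was 10.77 and 10.94 in adult heart, against 13.74, 13.95 and 15.23 in pup heart. That was 11.0-fold lower in adult heart (difference -3.45, SE 0.41, adjusted p = 0.00123). In hippocampus Col4a1 was 9.70 and 9.54 in adults, against 11.04, 11.34 and 11.49 in pups, 3.19-fold lower in adults (difference -1.67, SE 0.41, adjusted p = 0.0247). Neither gene had overlapping groups in either tissue, and pup heart replicate 3 was the highest sample for each. Col4a6, a chain of a rarer type IV trimer, went the other way, at 12.62 ± 0.16 in adult heart and 10.81 ± 0.37 in pup heart (SD, n = 2 and n = 3). Its difference was 1.82 (3.52-fold, adjusted p = 0.0089), and without adult heart replicate 1 it was 1.70 and did not pass.

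Type VI collagen forms beaded filaments next to basement membranes. Of its 5 measured chains, Col6a3 was lower in adult heart and 4 did not pass. Col6a3 was 9.31 and 9.48 in adult heart, against 11.51, 11.52 and 12.18 in pup heart, 5.07-fold lower in adults (difference -2.34, SE 0.27, adjusted p = 0.0012). In hippocampus it was 7.77 and 8.23 in adults, against 8.35, 8.14 and 8.11 in pups, where the groups overlapped (difference -0.20, adjusted p = 0.655). Col15a1, a multiplexin of the basement membrane zone of muscle and small vessels, was 11.81 and 11.41 in adult heart, against 13.05, 14.73 and 12.92 in pup heart. The groups did not overlap, and pup heart replicate 2 was far above the other pup hearts. The difference was -1.95 (SE 0.56, adjusted p = 0.0366), and the call was lost without adult heart replicate 1 (-2.16) or 2 (-1.75) and without any pup hippocampus replicate (-1.95 in each case). In hippocampus Col15a1 was 10.67 and 11.94 in adults, against 10.57, 10.69 and 10.87 in pups, and the 2 arrays of adult hippocampus replicate 2 read 13.93 and 9.95. Of the classes not yet named, the 9 fibril-associated genes, 4 transmembrane genes, 3 short chain network genes and the anchoring fibril gene had no call in this comparison, nor had Col18a1, the other multiplexin, or Col26a1.

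**Figure D2:**
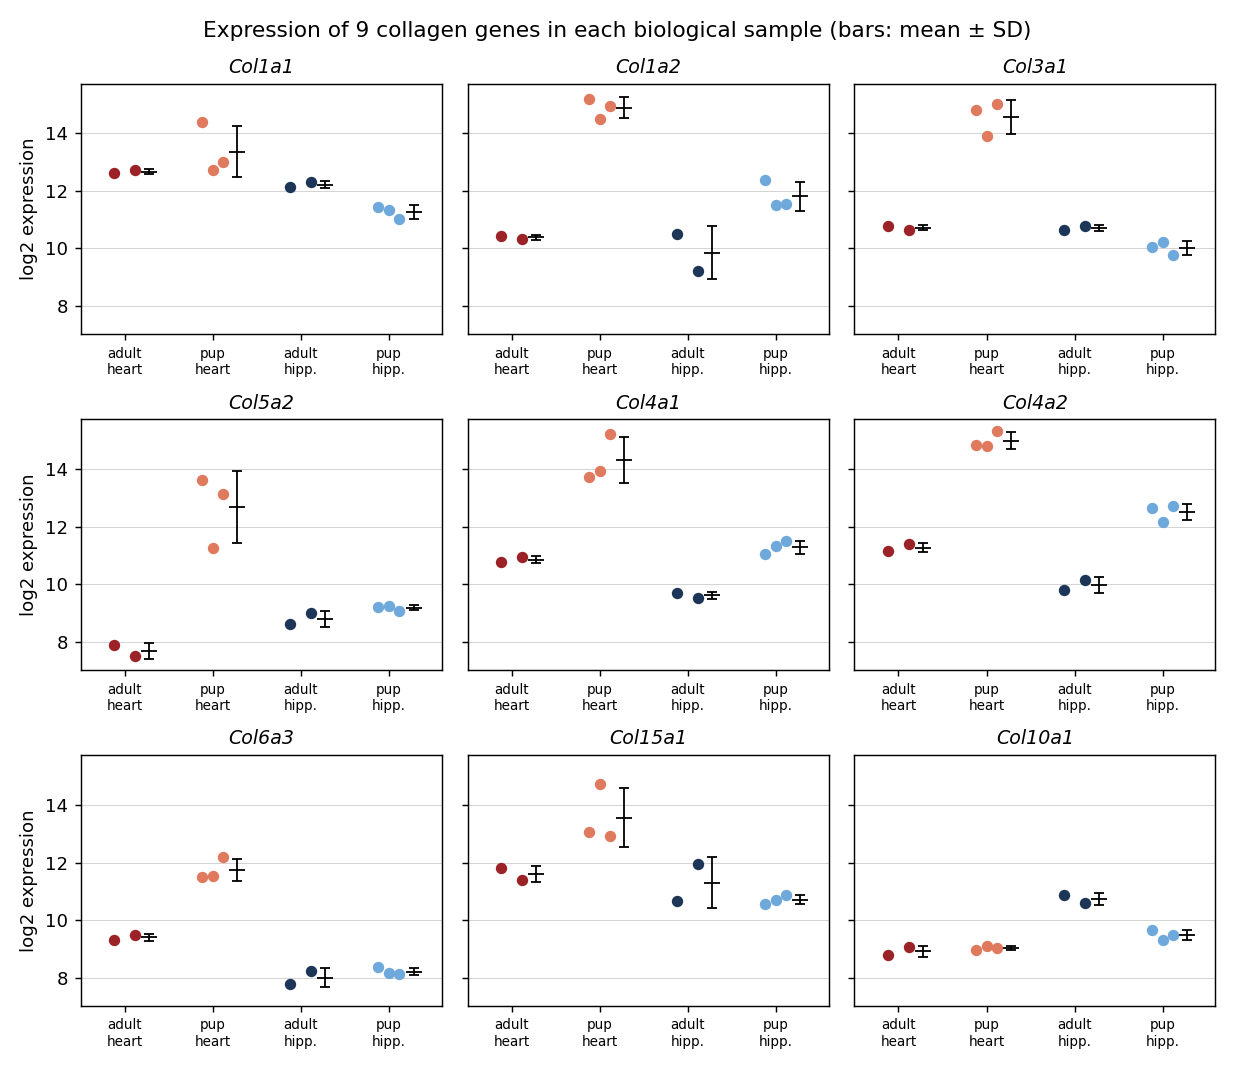
Log2 expression (y axis) of 9 collagen genes in each of the 4 groups, with a point per biological sample and a bar for the mean ± SD beside it. For Col1a2, Col3a1, Col5a2, Col4a1, Col4a2, Col6a3 and Col15a1 every pup heart sample lies above every sample of the other groups. For Col10a1 both adult hippocampus samples lie above all others.

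In hippocampus the age comparison called 5 collagen genes. Col1a2, Col4a1 and Col4a2 were lower in adults (7.44% of all genes were), Col10a1 and Col12a1 were higher (8.63% of all genes were), and 37 collagen genes did not pass. The median difference was 0.14 for the collagen genes and 0.10 for all genes. Col10a1, the short chain collagen of cartilage that is turning to bone, was 10.88 and 10.59 in adult hippocampus, against 9.66, 9.31 and 9.48 in pup hippocampus. The groups did not overlap, and the level was 2.39-fold higher in adults (difference 1.25, SE 0.22, adjusted p = 0.00744). Its values in heart were 8.77 and 9.05 in adults, against 8.95, 9.11 and 9.02 in pups (difference -0.12, adjusted p = 0.747). Col12a1, a collagen that binds the surface of fibrils, was 12.09 and 12.33 in adult hippocampus, against 11.35, 11.65 and 11.24 in pup hippocampus. Its difference was 0.80 (SE 0.24, adjusted p = 0.0496), close to the difference of 0.71 in heart, which did not pass (adjusted p = 0.0634).

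Calls in hippocampus rested on few samples. Without pup hippocampus replicate 1, the sample with the most cardiac actin, the same 3 genes were lower and Col10a1 alone was higher (difference 1.34, adjusted p = 0.0173). The difference of Col1a2 was -1.66 there (adjusted p = 0.0461), that of Col4a1 -1.80 (adjusted p = 0.0441) and that of Col4a2 -2.48 (adjusted p = 0.00712). Col1a2 lost its call without adult hippocampus replicate 2 (difference -1.30), and Col10a1 without adult hippocampus replicate 1 (1.11). The hippocampal call of Col1a2 was also lost with the mean over its probe sets (-0.93, adjusted p = 0.0518) and with probe sets without a suffix (-0.78, adjusted p = 0.232). Col4a1 lost it without pup hippocampus replicate 2 (-1.65) or 3 (-1.58), or adult hippocampus replicate 1 (-1.76) or 2 (-1.59). The count of 5 became 10 without pup heart replicate 3 and 3 without pup hippocampus replicate 2 or 3. Calls over all genes moved as well, from 1571 higher and 1354 lower to 2134 and 1710 without pup heart replicate 3. They were 939 and 914 without pup hippocampus replicate 2, and 789 and 842 without pup hippocampus replicate 3. Col12a1 kept its call under 5 of 21 alternatives. Col4a2 kept it under all 21 alternatives run.

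**Figure D3:**
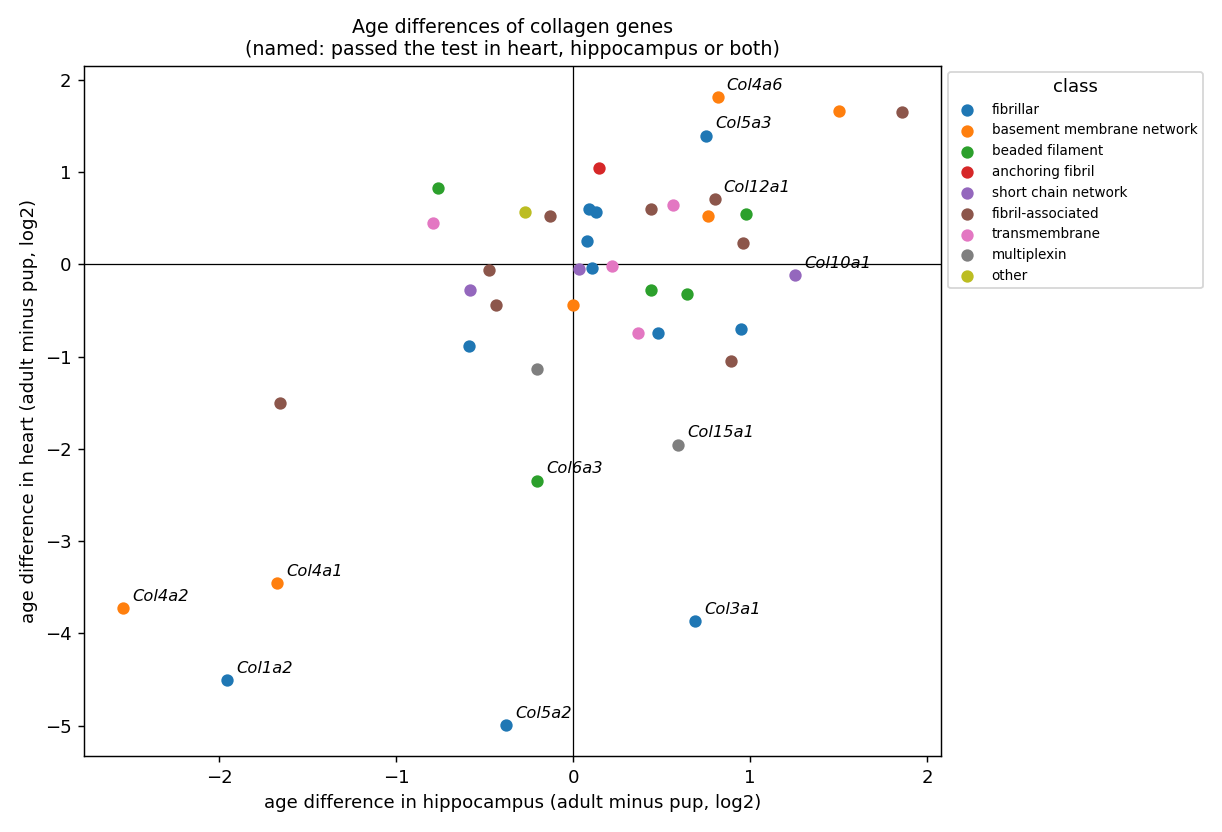
Age difference of each collagen gene in heart (y axis) against that in hippocampus (x axis), adult minus pup on the log2 scale, coloured by structural class, with names for genes that passed in at least 1 tissue. Col1a2, Col4a1 and Col4a2 are negative on both axes, whereas Col3a1 and Col5a2 lie far below 0 in heart and at 0.69 and -0.38 in hippocampus.

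Whether the age difference itself differed between the tissues was tested by the interaction term, in which the hippocampal age difference is subtracted from the one in heart. It was negative and passed for Col5a2 (-4.61, SE 0.82, adjusted p = 0.0201), Col3a1 (-4.55, SE 0.47, adjusted p = 0.00415), Col6a3 (-2.14, SE 0.39, adjusted p = 0.0208) and Col10a1 (-1.37, SE 0.31, adjusted p = 0.0475). Over all genes 1.23% had a negative and 2.45% a positive interaction. On the brightest probe set of each gene, no collagen gene had a positive one in limma (0 called, 1 at an unadjusted p under 0.05). The median was -0.22 for collagen genes and -0.04 for all genes. A dimmer probe set of Col9a1 had an interaction of 1.96 and passed with adjustment over all probe sets. Without pup hippocampus replicate 1 it was 1.76 and did not pass. For Col3a1, Col5a2 and Col6a3 the larger age difference was in heart, and for Col10a1 it was in hippocampus. Sizes and calls depended on the probe set. The other probe sets of Col3a1 and Col5a2 gave -3.55 and -1.70 and passed. Dimmer probe sets of Col5a1 (-2.83), Col14a1 (-2.82) and Col6a2 (-1.88) passed too. That of Col6a2 did not pass without pup hippocampus replicate 1 (-1.87). Col1a2, Col4a1 and Col4a2, which were lower in adults of both tissues, had interactions of -2.55 (adjusted p = 0.0552), -1.78 (adjusted p = 0.125) and -1.19 (adjusted p = 0.128). A block for the replicate number took all 4 gene calls away (0 called, 3 positive and 12 negative at an unadjusted p under 0.05, adjusted p = 0.0505 for Col3a1). With that block 37 genes had a positive and 8 a negative interaction over all genes. Col3a1 passed whichever sample was left out, Col5a2 and Col6a3 lost the call in 6 of 10 such fits and Col10a1 in 10 of 10. The count of 4 became 1 without pup hippocampus replicate 2 or 3. Calls over all genes fell from 445 positive and 224 negative to 222 and 72 without pup hippocampus replicate 2. They fell to 265 and 105 without pup hippocampus replicate 3. Without pup hippocampus replicate 1 the values were -4.57 for Col3a1, -4.63 for Col5a2 and -2.21 for Col6a3, all called, and -1.46 for Col10a1, not called.

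Fibrillar, type IV and type VI genes were among those higher in pup heart than in pup hippocampus. Of the 42 genes, 11 were higher in pup heart (7.43% of all genes were), 2 were lower (8.27% of all genes were) and 29 did not pass. Their median difference was 0.40, against 0.10 for all genes. This comparison shares the pup hearts with the age comparison in heart, so the high pup heart levels enter both. By class, 5 of 11 fibrillar genes, 2 of 6 type IV genes, 2 of 5 type VI genes, 1 of 9 fibril-associated genes and 1 of 2 multiplexins were higher in pup heart. Col3a1 differed by 4.56 (SE 0.30, adjusted p = 1.35e-05), a level 23.5-fold higher in pup heart. Col6a3 followed at 3.53 (11.6-fold, adjusted p = 1.82e-05), Col5a2 at 3.50 (11.3-fold, adjusted p = 0.0018) and Col1a2 at 3.08 (8.44-fold, adjusted p = 0.000646). Both type IV genes with lower levels in adults were also higher in pup heart, Col4a1 by 3.02 (adjusted p = 0.000516) and Col4a2 by 2.48 (adjusted p = 0.00015). Col15a1 was 2.86 higher (adjusted p = 0.0044). Col1a1, which did not pass in either age comparison, was 2.10 higher in pup heart (SE 0.39, adjusted p = 0.00645). The remaining genes higher in pup heart were Col6a2 (2.08), Col5a1 (1.85) and Col14a1 (1.51), chains of types VI, V and XIV.

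Pup hippocampus had the higher level of Col22a1, a collagen of tissue junctions such as that between muscle and tendon, and of Col9a3, a fibril-associated chain of cartilage. Col22a1 was 7.65 ± 0.09 in pup heart and 8.75 ± 0.22 in pup hippocampus (SD, n = 3 each), a difference of -1.10 (adjusted p = 0.00697). It was not called where only probe sets without a suffix in their name were used (-0.26). Col9a3 differed by -1.03 (adjusted p = 0.0325) and lost its call in 7 of 10 fits without 1 sample. Col14a1 lost it without pup hippocampus replicate 1 (1.54) or 2 (1.17) and without pup heart replicate 2 (1.41) or 3 (1.42). These losses are those of the brightest probe sets. A dimmer probe set of Col14a1 differed by 3.80 and a dimmer one of Col9a3 by -1.58, and both passed. They still passed without pup hippocampus replicate 1 (3.97 and -1.58). Without pup hippocampus replicate 1, 10 genes were higher and 2 lower, Col14a1 (adjusted p = 0.0684) and Col9a3 (adjusted p = 0.0875) no longer passing.

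Between adult tissues, the calls on the chosen probe sets fell outside the fibrillar genes. With the most variable probe set of each gene, the fibrillar gene Col3a1 passed and was higher in adult heart. In limma 5 collagen genes were higher in adult heart (10.2% of all genes were), 2 were lower (9.46% of all genes were) and 35 did not pass. The unmoderated test called 0 collagen genes (6 higher and 3 lower at an unadjusted p under 0.05), and 0 of all 18194 genes. The median difference was 0.25, against 0.03 for all genes. Of the 11 fibrillar genes, 0 passed in limma, also at an unadjusted p under 0.05, and their differences ran from -1.11 for Col5a2 to 0.95 for Col2a1, the chain of cartilage fibrils. The type VI genes Col6a3 and Col6a2 were higher in adult heart, as they were in pup heart. Col6a3 averaged 9.39 ± 0.12 in adult heart and 8.00 ± 0.32 in adult hippocampus (SD, n = 2 each), a difference of 1.39 (adjusted p = 0.0117). Col6a2 was 11.93 and 11.87 in adult heart, against 10.24 and 10.84 in adult hippocampus (difference 1.37, adjusted p = 0.034). For comparison it was 12.69, 12.18 and 11.66 in pup heart, against 10.35, 10.21 and 9.73 in pup hippocampus, so the tissue groups overlapped at neither age.

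Col4a2 was 1.30 higher in adult heart than in adult hippocampus (adjusted p = 0.016), and Col4a1 was at 1.24 without passing (adjusted p = 0.0836). Col17a1, the transmembrane collagen of skin cell anchors, was 7.67 in each adult heart sample, against 6.43 and 6.13 in adult hippocampus (difference 1.39, SE 0.26, adjusted p = 0.0064). The arrays of Col17a1 read 7.23 and 8.10 in adult heart replicate 1 and 7.92 and 7.43 in replicate 2. Col17a1 was 7.42, 6.86 and 7.39 in pup heart, against 7.08, 7.05 and 7.08 in pup hippocampus. Col20a1, a fibril-associated collagen, was 9.42 and 10.24 in adult heart, against 8.61 and 8.39 in adult hippocampus (difference 1.33, adjusted p = 0.0445). The 2 arrays of adult heart replicate 2 read 8.79 and 11.70 for Col20a1. The pup samples of Col20a1 were 8.92, 9.93 and 9.06 in heart, against 8.89, 8.51 and 8.48 in hippocampus, so no tissue groups overlapped but only the adult comparison passed.

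Col10a1 and Col9a3 were lower in adult heart than in adult hippocampus. Col10a1 differed by -1.83 (SE 0.24, adjusted p = 0.00136), 3.55-fold lower in heart. Col9a3 was 7.91 and 7.92 in adult heart, against 9.81 and 9.52 in adult hippocampus, 3.36-fold lower in heart (difference -1.75, SE 0.33, adjusted p = 0.0068). In pups it was 7.62, 7.19 and 8.23 in heart, against 8.71, 8.56 and 8.85 in hippocampus, so that adult hippocampus held the highest samples. Of 10 measured markers of cartilage and bone, 1 passed here and was lower in adult heart (9.46% of all genes were). It was Sox9 (-1.34), a regulator of cartilage and of brain glia, while the list median was 0.27, toward heart. With age in hippocampus 1 of the 10 passed and was higher in adults (8.63% of all genes were). It was Ibsp, a bone matrix protein, at 1.17 (1.15 and not passing without pup hippocampus replicate 1). Col3a1, which set pup heart apart, was at nearly the same level in adult heart and adult hippocampus on the chosen probe set (difference 0.00, SE 0.36, adjusted p = 0.996). Its sign changed with the scaling (-0.068 after median centring), and with the most variable probe set it was called higher in adult heart. Without 1 adult sample, Col4a2 (1.11 to 1.48), Col6a2 (1.06 to 1.67), Col6a3 (1.17 to 1.62), Col17a1 (1.24 to 1.54) and Col20a1 (0.92 to 1.74) each lost the call at least once. Col10a1 (-1.68 to -1.97) and Col9a3 (-1.60 to -1.89) kept it in these 4 fits. Col9a3 lost it with the mean over probe sets (-0.63, adjusted p = 0.181) and with probe sets without a suffix (-0.40, adjusted p = 0.453), and Col20a1 lost it under 12 of 21 alternatives. The count of 7 became 3 without adult heart replicate 2 and 4 without any 1 of the other 3 adult samples.

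Different probe sets of the same collagen gene often disagreed on the age difference in heart. Over all 82 collagen probe sets, 16 were lower in adult heart (8.36% of all probe sets were) and 3 were higher (11.7% of all probe sets were), and 12 genes had at least 1 lower probe set. No gene had a probe set called in each direction in this comparison, whereas 1 gene did between adult tissues. In all, 5 genes gained a lower call from a dimmer probe set than the one chosen: Col4a5 (-3.41, where the chosen probe set was at 0.53), Col5a1 (-2.66 and -0.74), Col14a1 (-2.54 and -1.04), Col6a2 (-1.46 and -0.28) and Col11a1 (-1.24 and -0.88).

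Col4a5 is the X-linked chain that joins with Col4a6 or with Col4a3 and Col4a4. Its dimmer probe set was lower in adults of both tissues, as those of Col4a1 and Col4a2 were. That probe set averaged 9.20 in adult heart and 12.61 in pup heart (adjusted p = 0.00261), and 7.80 in adult hippocampus and 10.14 in pup hippocampus (difference -2.34, adjusted p = 0.0185). The hippocampal difference was -2.41 without pup hippocampus replicate 1 (adjusted p = 0.0408). The chosen probe set averaged 13.30 in adult heart and 12.77 in pup heart, and the files do not say which transcripts each covers. For Col9a1, a cartilage collagen chain, the chosen probe set was between 15.24 and 15.76 in all samples, near the highest value of 16.0, where a scale leaves little room for differences. Its dimmer probe set averaged 10.70 in adult heart and 8.39 in pup heart, 4.96-fold higher in adults (adjusted p = 0.00117). Col1a2, Col3a1, Col4a1 and Col5a2 were lower in adult heart on more than 1 probe set, the others giving -2.74, -5.35, -3.28 and -1.85. A further Col1a2 probe set did not pass (-1.01, adjusted p = 0.0857).

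**Figure D4:**
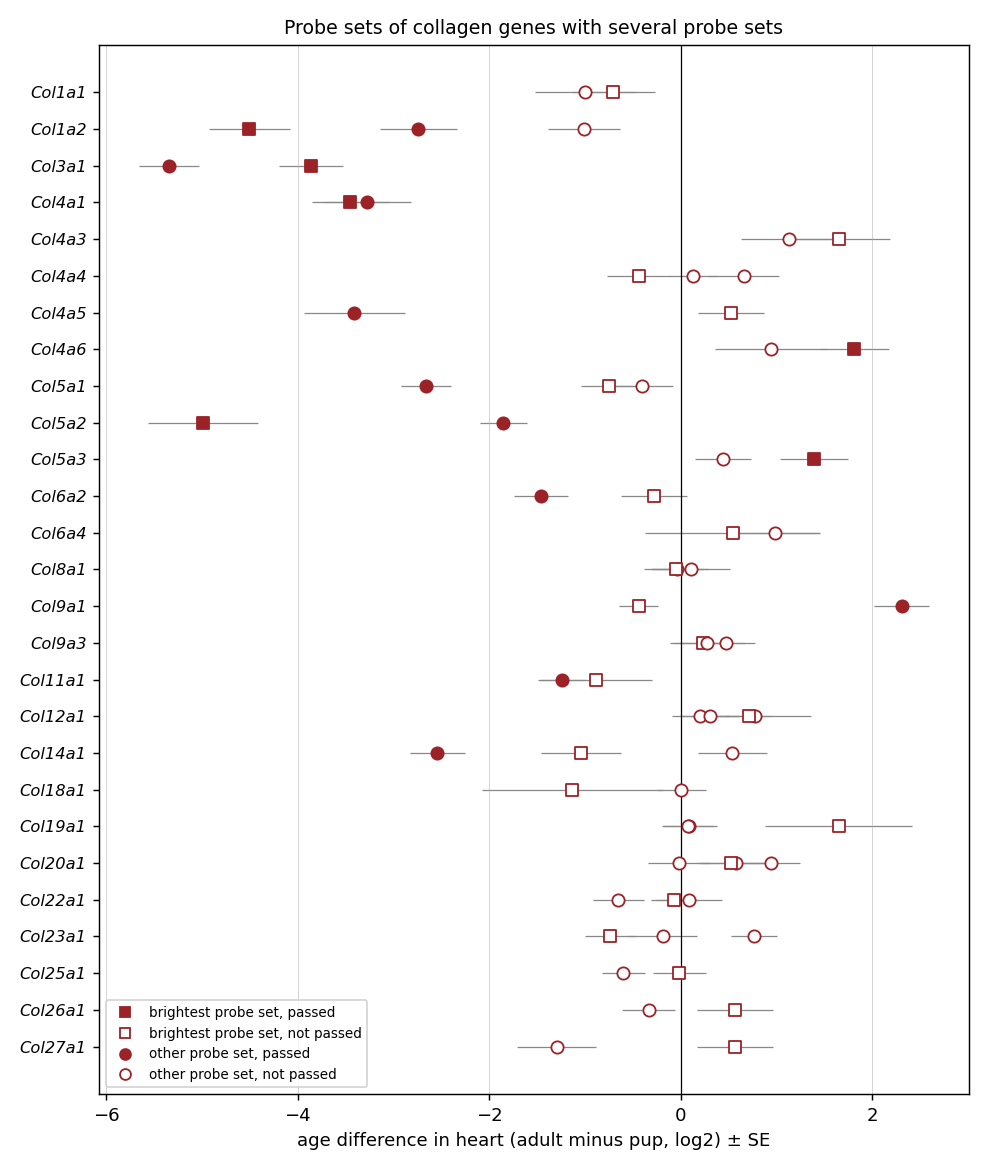
Age difference in heart (x axis, adult minus pup, log2, with the SE as a grey line) for each probe set of the collagen genes with several probe sets. Squares are the brightest probe set of a gene and circles the others, filled where they passed. Filled circles stand far from open squares for Col4a5, Col5a1, Col14a1 and Col9a1.

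Between pup tissues 20 collagen probe sets were higher in heart (6.76% of all probe sets were) and 4 were lower (7.51% of all probe sets were), against 18 and 4 without pup hippocampus replicate 1. The other probe set of Col3a1 was 5.10 higher in pup heart and that of Col5a2 2.90 higher. In adults these probe sets were 1.55 and 1.20 higher in heart and passed, unlike the chosen ones (0.00 and -1.11). A dimmer probe set of Col25a1, a transmembrane collagen of neurons, averaged 6.54 in pup heart and 9.22 in pup hippocampus (difference -2.68), and 5.94 in adult heart and 9.38 in adult hippocampus (difference -3.43). It passed at each age (adjusted p = 1.83e-05 and 9.24e-05), while the chosen probe set of Col25a1 differed by 0.50 and 0.27 and did not pass. In pups the dimmer probe set differed by -2.69 without pup hippocampus replicate 1 and still passed.

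Genes whose products fold, export and crosslink collagen were called in both directions. Over all genes tested, 9.38% were lower and 11.2% higher in adult than in pup heart, and 7.44% lower and 8.63% higher in adult than in pup hippocampus. Between pup tissues 7.43% were higher and 8.27% lower in heart, and between adult tissues 10.2% were higher and 9.46% lower. Of 17 measured genes for folding, hydroxylation and glycosylation, 3 were lower in adult heart, 2 were higher and 12 did not pass. Their median difference was 0.05. Serpinh1, the chaperone that binds collagen in the endoplasmic reticulum, was lower in adults of both tissues, by -1.95 in heart (adjusted p = 0.00139) and -2.06 in hippocampus (adjusted p = 0.00152). Crtap, part of a prolyl hydroxylase complex, was lower in adult heart (-1.40), whereas Mia3, which helps export procollagen, was 2.10 higher and the transcription factor Creb3l1 2.03 higher. In adult hippocampus Creb3l1 was 2.26 higher, P3h3, a prolyl hydroxylase, was lower (-1.20) and 14 genes did not pass. Between pup tissues Serpinh1 (2.31), P4hb (1.35) and Colgalt2 (1.09) were higher in heart, and between adult tissues Serpinh1 (2.42), Mia3 (1.73) and P3h3 (1.13) were. Of 10 genes for procollagen cleavage and crosslinking, Loxl1, a lysyl oxidase, was lower in adult heart (-1.73) and 9 did not pass (median -0.03). In adult hippocampus the procollagen cleavage genes Pcolce (1.76) and Bmp1 (1.37) and the lysyl oxidase Loxl4 (1.01) were higher, and 7 did not pass. Loxl1 (2.82), Pcolce (2.46) and Bmp1 (1.13) were higher in pup heart than in pup hippocampus, and Lox (2.99) and Loxl1 (1.15) were higher in adult heart than in adult hippocampus. With pup hippocampus replicate 1 left out, Loxl4 (0.89) no longer passed with age in hippocampus, nor P4hb (1.33) and Colgalt2 (1.07) between pup tissues, and the other genes named here that use pup hippocampus passed.

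The shares of all genes with age were again 9.38% lower and 11.2% higher in adult heart, and 7.44% and 8.63% in adult hippocampus. Between tissues, 7.43% were higher and 8.27% lower in pup heart, and 10.2% and 9.46% in adult heart. Of 17 basement membrane genes, 5 were lower in adult heart, 1 was higher and 11 did not pass (median -0.16). Pxdn, the peroxidase that crosslinks type IV collagen, was 7.75 and 8.14 in adult heart, against 12.72, 12.02 and 13.88 in pup heart, a difference of -4.93 (adjusted p = 0.000612). Nid1, which links laminin to type IV collagen, was lower in adult heart (-2.24) and in adult hippocampus (-2.42), and the laminin chains Lamc1 (-1.80) and Lama4 (-1.45) were lower in adult heart. In adult hippocampus Pxdn (-1.63) and Smoc1 (-1.68) were lower too, and 14 did not pass. All 5 basement membrane genes called between pup tissues were higher in heart, led by Lamc1 (2.62) and Pxdn (2.43), and in adults Nid1 (2.48), Lamc1 (1.43) and Lamb3 (0.98) were. Of 14 small proteoglycans and fibril binders, Aspn (-3.75), Lum (-1.89) and Ogn (-1.02) were lower in adult heart and 11 did not pass (median 0.08), while in hippocampus Sparc alone passed, 1.17 higher in adults. In pups Aspn (4.84), Lum (2.76), Ogn (2.67) and Tnxb (2.42) were among the 5 higher in heart, and in adults Tnxb (1.93) and Ogn (1.83) were. Of 10 collagen receptor genes, Gp6 (1.29), Itga2 (1.23) and Lair1 (1.19) were higher in adult heart and 7 did not pass. In adult hippocampus the uptake receptor Mrc1 (-3.34) and the integrin chain Itga1 (-0.89) were lower and Ddr2 (1.12) was higher. Itga2 was lower in pup heart than in pup hippocampus (-2.11), and in adults Mrc1 (2.18), Itga1 (1.77) and Gp6 (1.18) were higher and Itgb1 (-1.31) lower in heart. When pup hippocampus replicate 1 was left out, Pxdn (-1.46), Sparc (1.20) and Itga1 (-0.82) no longer passed with age in hippocampus, and the other genes named here that use pup hippocampus passed.

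Markers of fibroblasts, pericytes and vessels were called in both directions between adult and pup heart, where 9.38% of all genes were lower and 11.2% higher. Of 12 fibroblast markers, 5 were lower in adult heart, 1 (Gsn, an actin-binding protein, named after its value was seen) was higher and 6 did not pass (median -0.95). Dpt differed by -3.20, Mfap5 by -3.03, Lum by -1.89 and Cthrc1 by -1.77, and the mean of the list per sample was 11.01 to 11.22 in adult heart and 11.84 to 12.17 in pup heart. For 10 markers of pericytes and smooth muscle, 5 were lower in adult heart, led by Abcc9 (-3.38) and Rgs5 (-3.19), 1 was higher and 4 did not pass (median -0.69), with list means of 10.94 to 10.95 in adult heart and 11.42 to 12.06 in pup heart. For 11 endothelial markers, 4 were lower, Cdh5 (-3.43), Kdr (-3.28), Tek (-2.14) and Esam (-1.86), 1 was higher and 6 did not pass (median -0.19), with list means of 10.01 to 10.08 in adult heart and 10.85 to 10.88 in pup heart. Heart muscle markers were also lower in adult heart for 4 of 10 (Nppa -2.19, Ryr2 -2.16, Myh7 -1.69 and Tnni3 -1.56), with list means of 12.86 to 13.19 in adult heart and 13.89 to 14.58 in pup heart. The part of these cell types in the collagen differences was not tested.

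In hippocampus 7.44% of all genes were lower in adults and 8.63% higher. Of 12 fibroblast markers there, 2 were lower in adults, Pdgfra (-2.15) and Dpt (-1.48). A further 4 were higher, led by Pi16 (1.37) and Gsn (1.32), and 6 did not pass. Of 10 pericyte markers Rgs5 (-2.23) alone passed, and of 11 endothelial markers Cdh5 (-2.03) alone, both lower in adults. The fibroblast list mean was 10.45 to 10.52 in adults and 10.37 to 10.55 in pups. The pericyte list mean was 9.70 to 9.76 in adult hippocampus and 10.28 to 10.43 in pup hippocampus, and the endothelial one was 9.26 to 9.57 in adult hippocampus and 9.38 to 9.60 in pup hippocampus. Leptomeningeal markers, from the membranes over the brain, had 1 of 10 called (Aldh1a2, 1.07 higher in adults), with list means of 10.25 to 10.38 in adult hippocampus and 10.20 to 10.25 in pup hippocampus. The heart muscle list mean was 8.40 to 8.60 in adult hippocampus and 8.97 to 10.63 in pup hippocampus. Between pup tissues 5 of 12 fibroblast, 4 of 10 pericyte and 5 of 11 endothelial markers were higher in heart (7.43% of all genes were). Dpt (5.03), Mfap5 (4.14), Abcc9 (4.77) and Cdh5 (3.58) were among them. Between adult tissues 3 fibroblast, 4 pericyte and 2 endothelial markers were higher in heart (10.2% of all genes were). Of 8 epidermal markers, Krt14 (2.68) and Perp (1.68) were higher in adult hippocampus than in pup hippocampus. Their list mean was 11.18 to 11.41 in adult heart and 11.27 to 11.43 in adult hippocampus, the comparison in which Col17a1 was called. Without pup hippocampus replicate 1, Aldh1a2 (1.14) and the fibroblast marker Pi16 (1.49) no longer passed with age in hippocampus. In that fit 2 fibroblast genes were higher and 3 lower with age in hippocampus. Between pup tissues 4 fibroblast, 4 pericyte and 5 endothelial markers were then higher in heart.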

How the data were processed

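Expression of heart and hippocampus was read from 14 arrays. The authors summarized probes by the upper decile with RMA 2.0 and deposited log2 values of 45101 probe sets, and the median centring and percentile scaling of their methods were not found in the deposited log2 values. Background correction and detection calls are not given in the sources used here. Technical arrays were averaged, and 10 samples were fitted with 1 mean per group in limma 3.58.1 (statmod 1.5.0, R 4.3.3), two-sided, with 6 residual and 3.10 prior degrees of freedom and Benjamini-Hochberg adjustment over 18194 genes (45101 probe sets where stated), threshold 0.05. SDs are between samples and SEs come from the fit. "Higher", "lower" and "called" refer to that threshold. The scripts were tested on simulated data.

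The collagen genes and gene lists were chosen with earlier results of these data known. Each sample's value is given for the 6 called collagen genes with the largest difference in each age and tissue comparison, those called in the interaction, Col1a1, Col1a2, Col3a1, Col4a1 and Col4a2. Other genes come from the lists, at most 4 called ones with the largest difference in each. Of the listed collagen genes, 3 were not matched and are not analysed here. Other sample groupings, scalings, probe set choices, filters, tests, a replicate block and fits without each sample were run as alternatives. A lone adult sample was then assumed to vary like the other groups. Calls in gene lists and probe sets without pup hippocampus replicate 1 were added after seeing the data.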

Additional observations from a re-analysis of the deposited data

Results flagged for a closer look

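In the fit of all 10 samples, the interaction test in limma called 4 collagen genes on their brightest probe sets. For these the age difference in heart differed from that in hippocampus. The heart minus hippocampus value was -4.61 for Col5a2, -4.55 for Col3a1, -2.14 for Col6a3 and -1.37 for Col10a1 (adjusted p = 0.0201, 0.00415, 0.0208 and 0.0475). The other Col3a1 probe set gave age differences of -5.35 in heart and -1.80 in hippocampus. With a replicate block none of the 4 passed (0 called, 3 positive and 12 negative at an unadjusted p under 0.05). The block left 37 positive and 8 negative calls over all genes. Col3a1 kept its call under 19 of 20 alternatives, Col5a2 and Col6a3 under 13 each and Col10a1 under 6, the last losing it in all 10 fits without 1 sample.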

How the results depend on the processing

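Against the reported counts of 9 collagen genes called with age in heart, 5 with age in hippocampus, 13 between pup tissues (6 to 16 over all alternatives), 7 between adult tissues and 4 in the interaction, other settings gave these counts. With each array as its own sample there were 14 with age in heart, 9 with age in hippocampus, 11 between adult tissues and 8 in the interaction, and with the replicate as a random effect 14, 9 and 7 for heart, hippocampus and the interaction. The most variable probe set gave 14 with age in heart, 13 between adult tissues and 7 in the interaction, the mean over probe sets gave 14 (11 of them lower in adults, against 7) and 7, and probe sets without a suffix gave 3 with age in hippocampus. The methods' t-test with Benjamini-Hochberg adjustment gave 0 with age in heart (0 lower), 6 between pup tissues (5 higher in heart, against 11) and 0 between adult tissues. With age in heart it called 37 higher and 30 lower over all genes. Between pup tissues it called 360 higher and 593 lower over all genes, and between adult tissues 0. Its unadjusted p was under 0.05 for 6 higher and 8 lower genes with age in heart and for 6 and 3 between adult tissues, and at the threshold of the methods, a false discovery rate of 0.1%, it called 0 in all 4 comparisons. For samples with the same replicate number, the correlation of deviations between tissues was 0.20, -0.09 and 0.00 in pups and -0.06 in adults. For unlike numbers it ran from -0.16 to 0.17 in pups and was 0.06 in adults. With 2 or 3 samples per group, these values cannot decide whether replicate numbers pair the samples. The fit with a replicate block gave 0 in the interaction and 10, 6, 12 and 6 in the age and tissue comparisons. Leaving out 1 sample at a time gave 2 to 10 with age in hippocampus (10 without pup heart replicate 3, 2 without either adult hippocampus replicate), 3 to 9 between adult tissues and 1 to 4 in the interaction. Sign changes touched only values that had not passed in the fit reported above. With age in hippocampus Col1a1 was -0.42 with the most variable probe set, and Col3a1 was -1.80 with it and -0.55 with the mean over probe sets. Between adult tissues Col1a2 (-0.13 to 1.18) and Col3a1 (-0.060 to 0.068) changed sign when 1 sample was left out, and Col3a1 was -0.068 after median centring and -0.036 after quantile normalization. Counts over all genes moved with these settings too. With age in hippocampus, 1571 higher and 1354 lower became 2278 and 2025 with each array as its own sample. Why counts moved was not tested. Col1a2, Col3a1, Col4a1, Col4a2, Col5a2 and Col6a3 kept their lower call in adult heart under 20 of 21 alternatives each, the exception being the methods' t-test.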
